A study of Mus musculus with 11 samples.

Results

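The matrix metalloproteinases Mmp2, Mmp3, Mmp7, Mmp8, Mmp9, Mmp10, Mmp12, Mmp13 and Mmp14 and their tissue inhibitor Timp1 were followed in RNA of whole mouse colon. These 10 genes are the rows of the normalized count table, 22836 genes in all, whose Ensembl identifiers carry those symbols, and all 10 were found. They were chosen by symbol with their levels in these same libraries known, so their differences between groups are given as a description, without p-values. The 11 libraries fall into 3 groups. In the transferred group, 5 libraries come from Tfam fl/fl Cd4 Cre mice that received CD4 T cell therapy, that is CD4 T cells of young donors given before the late wasting phase. The non-transferred group holds 3 libraries of mice with the same genotype and no transfer, and the control group 3 libraries of Tfam fl/fl mice, which carry the floxed allele of the mitochondrial transcription factor gene Tfam as the other mice do but no Cre. Mice of the transfer experiment are described as 10 months old, without a statement for each library. Because Cd4 Cre acts in thymocytes that carry both CD4 and CD8, it removes Tfam from CD4 and CD8 T cells alike, and recipients keep their own T cells beside those of the donor. The labels number the libraries and name no animal, so the spread between libraries may be partly technical.

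Matrix metalloproteinases are zinc enzymes that cut collagens, laminins, elastin and other proteins of the extracellular matrix, and also release or inactivate cytokines and cell surface proteins. They are made as inactive precursors and are opened by other proteases. TIMP proteins bind the active enzymes and block them. In the gut they are known from mucosal inflammation and wound repair, where fibroblasts, macrophages, neutrophils and epithelial cells each make part of the set. Transcription of several of them is known to respond to interleukin 1, tumor necrosis factor and AP-1 factors.

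The enzymes resemble each other in sequence, which bears on how well reads can be assigned to them. The 33 bases that encode the catalytic zinc site are shown for 5 of the enzymes, read from the canonical transcripts of GENCODE vM39 (GRCm39), with the codons of the 3 zinc-binding histidines in capitals. The same pattern was found in all 9 enzymes and not in Timp1.
Mmp10: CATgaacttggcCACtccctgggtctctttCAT
Mmp3: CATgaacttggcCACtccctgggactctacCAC
Mmp7: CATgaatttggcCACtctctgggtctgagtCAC
Mmp13: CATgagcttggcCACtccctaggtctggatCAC
Mmp14: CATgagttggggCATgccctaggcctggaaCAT
The coding sequences of Mmp3 and Mmp10 were 80.5% identical, and their transcripts shared a run of 104 identical bases. No other pair of the 10 genes shared more than 18 bases. Reads within the shared run cannot be assigned by sequence, so the split of reads between Mmp3 and Mmp10 is uncertain to that extent.

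RefSeq promoter sequences (GRCm38.p6) were at hand for 8 of the 10 genes, not for Mmp2 and Mmp9. They are shown because AP-1 is a known regulator of this family. Each run is the 120 bases before the annotated start, on the plus strand, with AP-1 motifs (TGANTCA, searched on both strands) and TATA boxes (TATAAA, gene strand only) in capitals. For Mmp12 the downstream of its starts and for Mmp7 the upstream of its starts is printed. The windows are chr9:7502222-7502341 for Mmp10, chr9:7445702-7445821 for Mmp3, chr9:7691970-7692089 for Mmp7, chr9:7347254-7347373 for Mmp12, chr9:7272394-7272513 for Mmp13, chr14:54431478-54431597 for Mmp14 and chrX:20870046-20870165 for Timp1.
Mmp10: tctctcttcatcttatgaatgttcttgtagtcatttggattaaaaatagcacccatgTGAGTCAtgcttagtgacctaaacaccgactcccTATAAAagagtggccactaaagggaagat
Mmp3: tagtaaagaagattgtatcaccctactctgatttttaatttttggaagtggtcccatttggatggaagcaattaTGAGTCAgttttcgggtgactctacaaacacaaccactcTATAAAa
Mmp7: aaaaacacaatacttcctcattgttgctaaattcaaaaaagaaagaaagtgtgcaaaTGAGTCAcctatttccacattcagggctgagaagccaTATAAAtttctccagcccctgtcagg
Mmp12: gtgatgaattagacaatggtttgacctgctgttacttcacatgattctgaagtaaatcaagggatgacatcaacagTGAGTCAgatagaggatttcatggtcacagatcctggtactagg
Mmp13: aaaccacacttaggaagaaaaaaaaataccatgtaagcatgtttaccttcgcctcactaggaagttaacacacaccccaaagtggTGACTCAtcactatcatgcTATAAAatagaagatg
Mmp14: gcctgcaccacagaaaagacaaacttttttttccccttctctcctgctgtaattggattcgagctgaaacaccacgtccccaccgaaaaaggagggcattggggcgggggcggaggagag
Timp1: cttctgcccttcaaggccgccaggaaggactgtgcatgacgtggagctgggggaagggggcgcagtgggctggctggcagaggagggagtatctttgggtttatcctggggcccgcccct
An AP-1 motif stood in 5 of the 10 promoters of these 8 genes, those of Mmp3, Mmp7, Mmp10, Mmp12 and Mmp13, against 7.81% of the 32851 promoters of the same length in the RefSeq table. Its first base lay between -63 and -35 from the start. TATAAA was found in the same 5 genes, against 8.32% of all promoters, and in Mmp12 it lies past the start and outside the printed window. The ETS motif AGGAAG, searched on both strands, was in 8 of the 10 promoters and in 35.4% of all. The NF-kB motif GGGANTTCC, on both strands, was in 0 of the 10 promoters and in 1.68% of all. These are matches of letters in a window and do not show that a factor binds there.

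The libraries were alike in depth, with 18214741 to 19178986 reads in genes each. Tfam itself had 865 to 1090.5 normalized counts in transferred, 1040.3 to 1102 in non-transferred and 977 to 1083 in control libraries. Its log2 difference between non-transferred and control libraries was 0.06 (standard error 0.10, limma adjusted p = 0.678), and whole colon gives no check of a deletion confined to T cells. Mitochondrial transcripts made up 3.84% to 4.82% of reads in transferred, 2.55% to 3.44% in non-transferred and 4.63% to 6.73% in control libraries. Whether this share plays a part in the differences below was not tested. In bulk tissue, fewer cells of a type and less RNA per cell cannot be told apart. Differences are on the scale of log2(normalized count + 1), where 1 stands for a doubling and low genes are understated, and a gene was called at a limma adjusted p under 0.05 over the 16781 genes whose mean over all libraries reached 10 normalized counts.

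Mmp10 encodes stromelysin-2, an enzyme that degrades proteoglycans and activates other metalloproteinases (ENSMUSG00000047562, GRCm39 chr9:7502353-7510241, plus strand). It had 13.7, 3.02, 8.84, 6.67 and 2.19 normalized counts in transferred colon, 411, 2018 and 348 in non-transferred colon and 1.88, 1.99 and 2.21 in control colon. Every non-transferred library lay above every transferred and every control library, and 2 reads stand behind each control value. The log2 difference was 7.78 (standard error 0.68) between non-transferred and control colon and -6.61 (0.61) between transferred and non-transferred colon. Without non-transferred replicate 3, the highest library, these became 6.97 and -5.81, and a pseudocount of 10 gave 5.81 and -5.36.

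Mmp3 encodes stromelysin-1, the closest relative of Mmp10 (ENSMUSG00000043613, chr9:7445822-7455975, plus strand). Its levels were 49.3, 13.1, 25.6, 68.6 and 47.1 normalized counts in transferred, 137, 1471 and 396 in non-transferred and 22.6, 17.9 and 19.8 in control colon. The non-transferred libraries were above all others but spanned a 10.7-fold range, the widest of the 10 genes in that group. The log2 difference was 4.36 (0.74) between non-transferred and control colon and -3.57 (0.67) between transferred and non-transferred colon. It was 3.48 and -2.69 without non-transferred replicate 3, and 5.18 and -4.40 without replicate 1.

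Mmp7 encodes matrilysin, which in mice is made by epithelial cells and activates alpha-defensins in Paneth cells of the small intestine (ENSMUSG00000018623, chr9:7692091-7699587, plus strand). It had 35.6, 14.1, 26.5, 73.4 and 5.48 normalized counts in transferred, 460.1, 893 and 323 in non-transferred and 12.2, 0 and 1.10 in control colon. The non-transferred libraries did not overlap with either other group, while transferred replicate 5 lay below control replicate 1. The log2 difference between non-transferred and control colon was 7.40 (0.96), and that between transferred and non-transferred colon was -4.44 (0.86). The control level rests on 13, 0 and 1 reads, and the first of these differences ranged from 6.60 without control replicate 2 to 8.46 without control replicate 1, and was 5.27 at a pseudocount of 10.

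The collagenases Mmp13 and Mmp8 cut fibrillar collagen, and Mmp8 is a granule enzyme of neutrophils. Mmp13 (ENSMUSG00000050578, chr9:7272514-7283331, plus strand) had 137, 44.3, 55.0, 45.7 and 77.8 normalized counts in transferred, 328, 1573 and 350.4 in non-transferred and 50.9, 45.7 and 47.4 in control colon. Transferred and control libraries overlapped, and the non-transferred libraries lay above both. The log2 difference was 3.53 (0.55) between non-transferred and control colon and -3.09 (0.50) between transferred and non-transferred colon, and 2.80 and -2.36 without non-transferred replicate 3. Mmp8 (ENSMUSG00000005800, chr9:7558457-7568487, plus strand) was the only member below the filter, with a mean of 9.18 normalized counts over all libraries. It had 2, 1, 1, 4 and 1 reads in transferred, 12, 65 and 15 in non-transferred and 0, 0 and 1 in control colon. Per read in genes, the non-transferred level was 91.4 times that of control (exact 95% interval 16.0 to 3648) and the transferred level 0.0595 times that of non-transferred colon (0.0264 to 0.118). These intervals cover counting error only.

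Mmp12, macrophage metalloelastase, degrades elastin (ENSMUSG00000049723, chr9:7344381-7369499, plus strand). It had 54.8, 9.05, 33.4, 37.2 and 7.67 normalized counts in transferred, 302, 586 and 164 in non-transferred and 10.4, 6.96 and 13.2 in control colon. The log2 difference was 4.83 (0.70) between non-transferred and control colon and -3.75 (0.62) between transferred and non-transferred colon. At a pseudocount of 10 the first was 3.99. Transferred replicates 1, 3 and 4 lay above all control libraries and replicates 2 and 5 among them. The 3′ end of Mmp12 overlaps Mmp1b on the other strand.

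**Figure D1:**
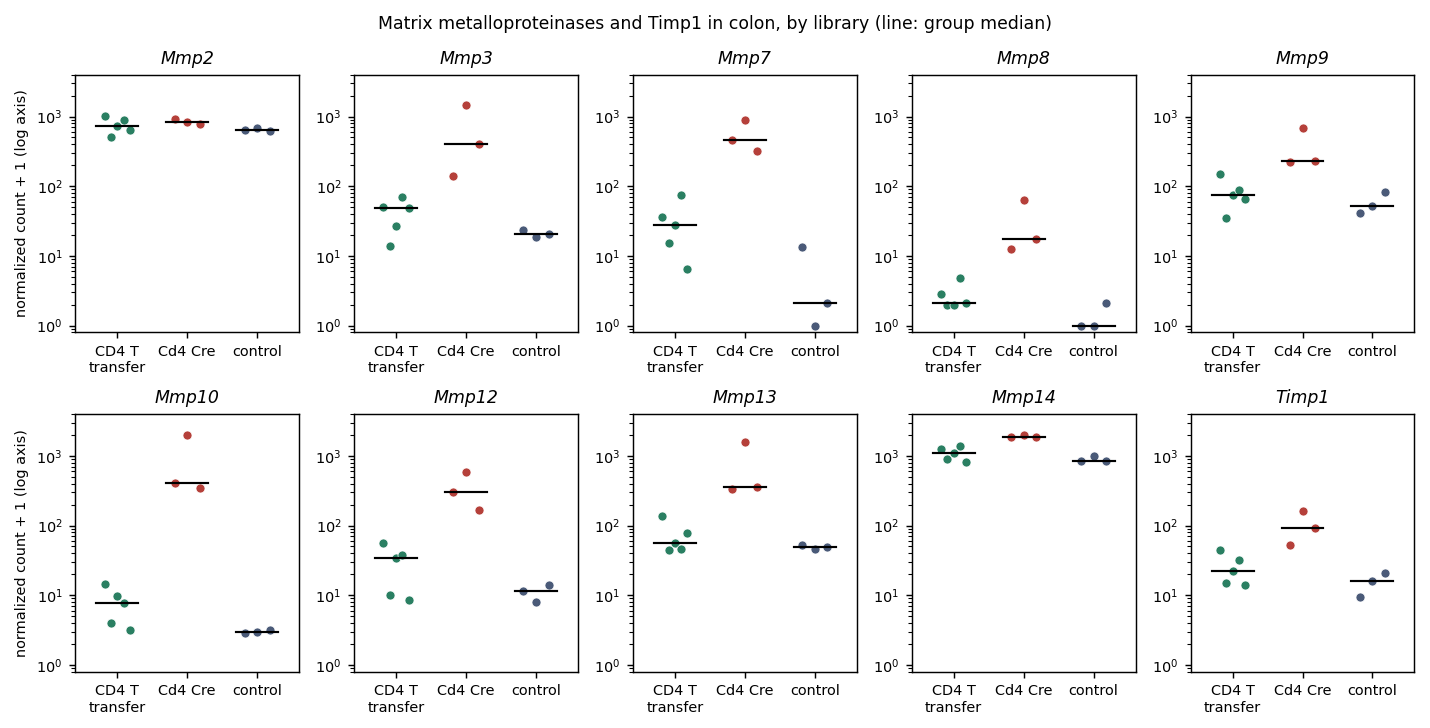
Normalized count + 1 (log axis) of the 10 genes in each library of transferred, non-transferred (Cd4 Cre) and control colon, with a line at the group median. For every gene but Mmp2 the 3 non-transferred libraries sit above all 5 transferred libraries, for example 348 to 2018 against 2.19 to 13.7 normalized counts for Mmp10.

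The gelatinases Mmp9 and Mmp2 cut denatured collagen and type IV collagen of basement membranes, Mmp9 largely from neutrophils and macrophages and Mmp2 mostly from stromal cells. Mmp9 (ENSMUSG00000017737, chr2:164780439-164797771, plus strand) had 147, 34.2, 72.7, 87.7 and 63.5 normalized counts in transferred, 220.3, 672 and 232 in non-transferred and 40.5, 51.7 and 82.7 in control colon. Its log2 difference was 2.52 (0.52) between non-transferred and control colon and -2.14 (0.47) between transferred and non-transferred colon. Mmp2 (ENSMUSG00000031740, chr8:93553902-93580049, plus strand) behaved otherwise, with 1014, 508, 737, 895 and 636 normalized counts in transferred, 923, 834 and 775 in non-transferred and 641, 677 and 615 in control colon. The transferred libraries spanned both other groups. Mmp2 had a log2 difference of 0.39 (95% interval -0.07 to 0.84) between non-transferred and control colon and of -0.19 (-0.60 to 0.21) between transferred and non-transferred colon, and it was the only tested member that was not called in either comparison. With only the libraries of the non-transferred and control groups in the fit, it was called at the same difference.

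Mmp14 encodes a membrane-bound enzyme that cuts collagen at the cell surface and, with TIMP2, activates the precursor of MMP2. It was the most abundant member by normalized count (ENSMUSG00000000957, chr14:54668878-54682821, plus strand), with 1261, 905, 1087, 1384 and 827 in transferred, 1852, 2010.2 and 1860.5 in non-transferred and 836, 989 and 846 in control colon. The non-transferred libraries agreed within a 1.09-fold range and lay above all others. The log2 difference was 1.10 (0.17) between non-transferred and control colon and -0.83 (0.15) between transferred and non-transferred colon.

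Timp1, the inducible inhibitor of most of these enzymes, had 43.8, 14.1, 21.6, 30.5 and 13.1 normalized counts in transferred, 50.9, 162 and 89.8 in non-transferred and 8.48, 14.9 and 19.8 in control colon (ENSMUSG00000001131, chrX:20736316-20740976, plus strand). Non-transferred libraries were higher than all others, by a small margin in replicate 1. The log2 difference was 2.64 (0.52) between non-transferred and control colon and -1.98 (0.46) between transferred and non-transferred colon. The second was no longer called without non-transferred replicate 3, at -1.56. Timp1 lies within Syn1, which is transcribed from the other strand, and non-coding RNAs overlap Mmp2, Mmp7, Mmp8 and Mmp14. Reads of these overlaps are uncertain. The paper describes the sequenced mRNA as stranded, but the strand setting of the counter was not given in the sources used here. Gm56768, a non-coding RNA that overlaps Mmp14, lies on the same strand, so strand could not separate its reads.

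Of the 9 members tested, 8 were called higher in non-transferred than in control colon, where 22.7% of all genes were called higher and 22.9% lower. One of these members, Mmp10, passed the filter only through the non-transferred libraries. The 3 non-transferred libraries lay above the 3 control libraries for 9 of 9, against 29% of all genes. Between transferred and non-transferred colon 8 of 9 were called lower, where 14.2% of all genes were called lower and 17% higher, and for 8 of 9 the groups did not overlap in this direction, against 16.6% of all genes. The median log2 difference of the 9 members was 3.53 between non-transferred and control colon and -3.09 between transferred and non-transferred colon, beside 0.02 and -0.02 for all genes. Because the members were selected on these values, nothing is read from the counts, and because both comparisons share the non-transferred libraries they are not independent.

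Between transferred and control colon limma called 0 of the 9 members, where 1.14% of all genes were called higher and 0.453% lower. At an unadjusted p under 0.05 there was 1, Mmp7, and edgeR and DESeq2 on the recovered reads called 0 each. All fitted differences were above 0, with a median of 0.67 beside -0.01 for all genes. Because the members were chosen with their levels in these libraries known, nothing is read from this shared sign or median. Mmp7 had 2.96 (95% interval 1.07 to 4.85), which was 2.16 without control replicate 2, 4.02 without control replicate 1 and 1.37 at a pseudocount of 10, and it was called without transferred replicate 5, at 3.43. Mmp10 followed with 1.16 (-0.17 to 2.50), Mmp12 with 1.08 (-0.29 to 2.44) and Mmp3 with 0.79 (-0.67 to 2.24). The intervals of Timp1 (-0.34 to 1.68), Mmp13 (-0.65 to 1.52), Mmp9 (-0.64 to 1.40), Mmp14 (-0.07 to 0.61) and Mmp2 (-0.22 to 0.60) also hold 0, and all but those of Mmp2 and Mmp14 also hold a doubling. For Mmp8, with 9 reads in transferred and 1 in control colon, the ratio was 5.44 (exact 95% interval 0.753 to 238). For none of the 9 tested members did the transferred and control libraries separate fully.

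**Figure D2:**
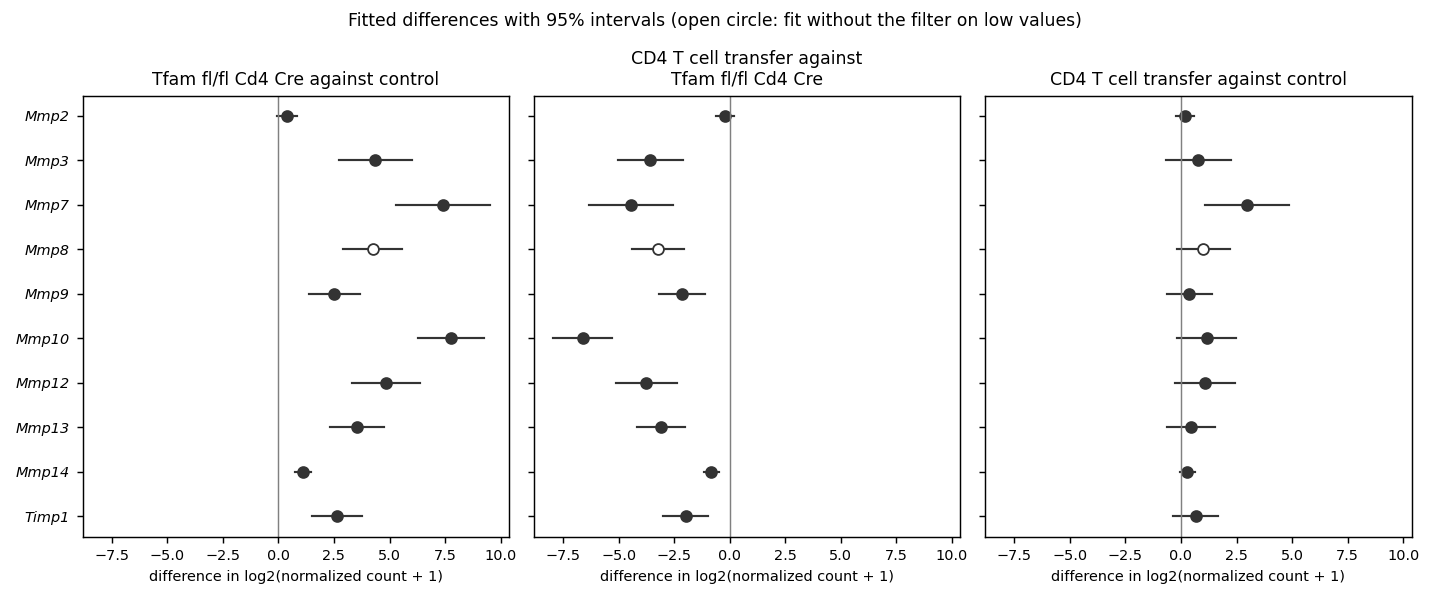
Fitted difference in log2(normalized count + 1) of each gene with its 95% interval, for non-transferred (Tfam fl/fl Cd4 Cre) against control, transferred against non-transferred, and transferred against control colon. Differences run up to 7.78 and down to -6.61 for Mmp10 in the first 2 panels, and in the third all intervals but that of Mmp7 hold 0. The open circle is Mmp8, which was below the filter and is drawn from a fit without it.

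The 3 non-transferred libraries were not alike. Replicate 3 was the highest of them for 9 of the 10 members, the exception being Mmp2, which was highest in replicate 1. The same library had the highest sum of neutrophil markers, 5545 normalized counts, against 1954 in replicate 1 and 2655 in replicate 4. Among transferred libraries, replicate 1 was highest for 6 members and replicate 4 for 4, while replicate 5 was lowest for 5 and replicate 2 for 4. Transferred replicate 1 had the highest Mmp9, Mmp13 and Timp1 of its group, and replicate 4 the highest Mmp3, Mmp7 and Mmp8.

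Levels per kilobase of annotated exon are only a rough scale between genes, since the exons of all annotated transcripts of a gene were merged. The lengths were 7237 bases for Mmp12, 6166 for Mmp14 and 1722 for Mmp10. A gene whose transcripts present are shorter than that is understated, which bears on the shares and order below. On this scale the 9 enzymes summed to 339 to 655 normalized counts per kb in transferred, 1433 to 4163 in non-transferred and 367 to 395 in control libraries. Mmp14 and Mmp2 together made up 75.0% to 85.8% of this sum in transferred, 13.5% to 37.8% in non-transferred and 84.9% to 89.1% in control libraries. In transferred colon the mean level per kb was 215 ± 57.0 for Mmp2 and 177 ± 38.0 for Mmp14 (SD, n = 5), and every other enzyme was below 27. In non-transferred colon the order by mean was Mmp10 (538 ± 550), Mmp7 (460 ± 245), Mmp3 (371 ± 393), Mmp14 (309 ± 14.4), Mmp13 (281 ± 267), Mmp2 (239 ± 21.1), Mmp9 (101 ± 69.6), Mmp12 (48.4 ± 29.7) and Mmp8 (12.5 ± 11.7; SD, n = 3 each). This order rests on replicate 3. Without it the means per kb were 323 for Mmp7, 301 for Mmp14, 240.4 for Mmp2, 220.5 for Mmp10, 148 for Mmp3 and 127 for Mmp13. In control colon Mmp2 had 182 ± 8.77 and Mmp14 144 ± 13.9 per kb, followed by Mmp13 with 18.0 ± 0.98, Mmp9 with 15.7 ± 5.90 and Mmp3 with 11.2 ± 1.31 (SD, n = 3 each), and the other 4 were below 4.

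**Figure D3:**
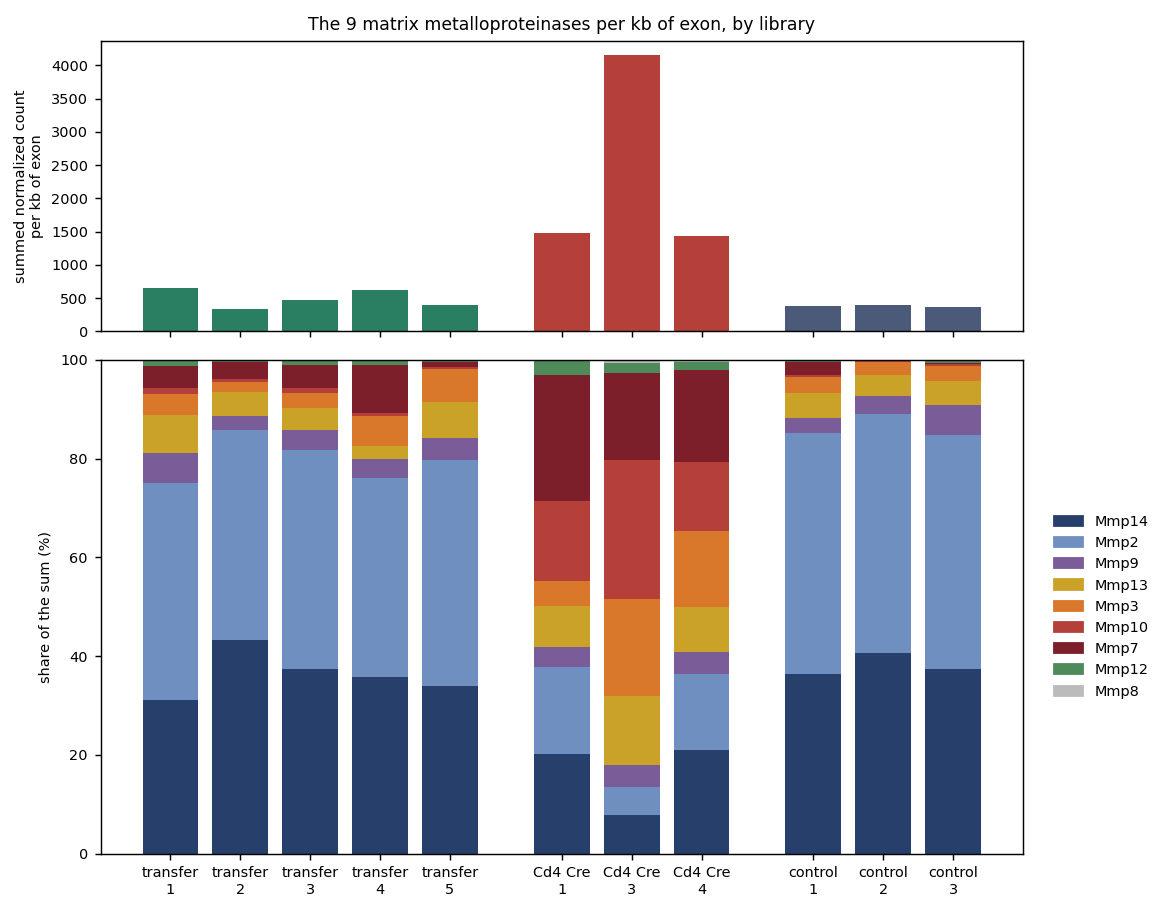
Sum of the 9 matrix metalloproteinases per kb of exon (upper bars) and share of each enzyme in that sum (lower bars, %) in each transferred, non-transferred (Cd4 Cre) and control library. Mmp14 and Mmp2 fill 13.5% to 37.8% of the bars of non-transferred libraries and at least 75.0% of all other bars. The exons of all annotated transcripts were merged for the length, so genes with shorter transcripts present are understated.

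In all, 6 of the 10 genes lie in the metalloproteinase cluster of chromosome 9, which the rule did not use. Within 427074 bases (GRCm39 chr9:7272514-7699587) the annotation places 10 Mmp genes, of which 7 are in the table: Mmp13, Mmp12, Mmp3, Mmp10, Mmp8, Mmp27 and Mmp7. Mmp27, which is no member, was at 0, 1.01, 0.983, 0 and 1.10 normalized counts in transferred, at 0 in all 3 non-transferred and at 0, 1.99 and 0 in control libraries, too low to test. The 5 members of the cluster that were tested, all chosen for their levels, had log2 differences of 3.53 to 7.78 between non-transferred and control colon, and the 4 members elsewhere 0.39 to 2.64. Between transferred and non-transferred colon the ranges were -6.61 to -3.09 for the cluster and -2.14 to -0.19 elsewhere. The 5 genes with an AP-1 motif in their printed promoter are the 5 tested genes of the cluster. Mmp8, the cluster member below the filter, had no AP-1 motif in its promoter, which was scanned but is not printed. Its level per read in genes in non-transferred colon was 91.4 times that of control colon (exact 95% interval 16.0 to 3648), from 92 reads against 1. Whether the motif plays a part in the differences was not tested.

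The genes whose levels followed each member most closely over the 11 libraries are given as a description, since the libraries share the 3 groups. Mmp10 and Mmp12 were both most like Cxcr2, the chemokine receptor of neutrophils, with a Pearson r of 0.99 and 0.98. Mmp12 was next most like Clec7a (0.98), a fungal glucan receptor of myeloid cells, and Il1b (0.98), the gene of interleukin 1 beta. Mmp10 was next most like Pmepa1 (0.99) and Ptafr (0.99), the receptor of platelet-activating factor. Timp1 was among the 3 genes closest to Mmp9 (0.97). Mmp7 was closest to Adgrf1 (0.99), Mmp13 to Slc4a11 (0.98), Mmp3 to Lbr (0.98), Mmp14 to Sirpa (0.99), Timp1 to Egln3 (0.97) and Mmp2 to Lyl1 (0.92).

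The other metalloproteinases of the table did not follow the members in number. Of 8 tested, 2 rose and 4 fell in non-transferred against control colon, with a median log2 difference of -0.69. Of all genes tested, 22.7% were called higher and 22.9% lower in that comparison. In transferred against non-transferred colon 17% were called higher and 14.2% lower. These shares are the background for the counts of this list and of the lists and markers below. Mmp25, a membrane-bound enzyme of leukocytes, rose to 64.4 ± 9.28 normalized counts in non-transferred colon, against 4.09 ± 2.06 in control (log2 difference 3.77, adjusted p = 0.00118), and had 15.5 ± 12.1 in transferred colon (SD, n = 3, 3 and 5). Mmp28, which is made by epithelial cells and macrophages, had 962 ± 255 in non-transferred and 336 ± 23.5 in control colon (1.48, adjusted p = 0.00467). Lower were Mmp17, with 108 ± 22.8 against 468 ± 55.0 (-2.12, adjusted p = 9.89e-05), Mmp11 (-1.58, adjusted p = 0.000411), Mmp16 (-1.39, adjusted p = 0.0243) and Mmp15 (-1.09, adjusted p = 0.000684). In transferred against non-transferred colon, Mmp17, Mmp11 and Mmp15 were higher by 1.60, 1.13 and 0.54 and Mmp25 had a difference of -2.37, all called by limma. The calls of Mmp15 and Mmp25 in that comparison were lost without non-transferred replicate 3 or 4, and that of Mmp15 also without transferred replicate 2. The call of Mmp16 was lost without either of those non-transferred replicates, without control replicate 1 or 2, and with quantile normalization.

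Among 10 other inhibitors tested, 1 rose and 4 fell in non-transferred against control colon, and Timp2 and Timp3 were among those that fell. Timp2, which also takes part in activating MMP2, had 1905 ± 276 normalized counts in transferred, 925 ± 288 in non-transferred and 2460 ± 434 in control colon (SD, n = 5, 3 and 3). Its log2 difference was -1.45 between non-transferred and control colon (adjusted p = 0.000402) and 1.08 between transferred and non-transferred colon (adjusted p = 0.00244). Reck, a membrane-anchored inhibitor of several metalloproteinases, changed by -2.57 (adjusted p = 2.21e-05) and 1.81 (adjusted p = 0.000243) in the same comparisons. Tfpi2, a serine protease inhibitor of the matrix, changed by -1.62 (adjusted p = 0.000195) and 1.15 (adjusted p = 0.00171). Timp3 had a difference of -0.60 in non-transferred against control colon (adjusted p = 0.0357; not called without non-transferred replicate 1 or control replicate 1 or 2, without a variance trend, with only the 2 groups or at the threshold of the paper), and its difference of 0.04 between transferred and non-transferred colon was not called. The inhibitor that rose was Slpi, which blocks neutrophil elastase and is made by mucosal epithelium, with 3.54 in non-transferred against control colon (adjusted p = 0.00193) and -2.61 in transferred against non-transferred colon (adjusted p = 0.00964; not called without non-transferred replicate 3).

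Of 11 tested genes whose products activate metalloproteinase precursors, 2 rose and 3 fell in non-transferred against control colon. These counts are near the shares of all genes, 22.7% and 22.9%. Plaur, the receptor of urokinase, rose by 1.38 (adjusted p = 0.00577) and Ctsk, cathepsin K, by 0.88 (adjusted p = 0.0141). The epithelial meprins Mep1a and Mep1b fell by 2.01 (adjusted p = 0.000535) and 1.11 (adjusted p = 0.00338), and the proprotein convertase Pcsk6 fell by 1.06 (adjusted p = 0.0136). The call of Ctsk was lost without non-transferred replicate 3 or control replicate 1 or 3, and that of Pcsk6 without non-transferred replicate 1 or 3. In transferred against non-transferred colon 3 were higher and 3 lower, but without non-transferred replicate 3 only 1, Furin, was called. Furin, which opens the precursor of MMP14, had a difference of -0.57 (adjusted p = 0.00872).

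Of 16 ADAM and ADAMTS proteases, relatives that shed surface proteins or cut proteoglycans, 5 rose and 3 fell in non-transferred against control colon. These counts too are near the shares of all genes, 22.7% and 22.9%. Adam8, found on leukocytes, had 135 ± 62.3 normalized counts in transferred, 380.3 ± 91.5 in non-transferred and 48.0 ± 29.9 in control colon, a log2 difference of 3.12 between non-transferred and control colon (adjusted p = 0.000497). The aggrecanase Adamts4 rose by 2.20 (adjusted p = 0.000456) and Adam9 by 0.68 (adjusted p = 0.000346). Adam33, known from smooth muscle and fibroblasts, fell by 3.27 (adjusted p = 8.37e-06). In transferred against non-transferred colon 2 of the 16 were higher and 6 lower (2 and 2 without non-transferred replicate 3, 2 and 3 without replicate 4), with 2.32 for Adam33 (adjusted p = 0.000106) and -1.60 for Adam8 (adjusted p = 0.0188; not called without non-transferred replicate 3 or 4).

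Matrix proteins that these enzymes cut were mostly lower in non-transferred colon, where 15 of 25 fell and 1 rose against control. Lamb2, a laminin chain, had 1007 ± 228 normalized counts in transferred, 431 ± 42.3 in non-transferred and 1355 ± 231 in control colon, with a log2 difference of -1.64 between non-transferred and control colon (adjusted p = 0.000117). Lama2, another laminin chain, changed by -1.40 (adjusted p = 0.000666), Col6a1 by -1.16 (adjusted p = 0.000413) and Nid1, which links laminin to collagen IV, by -0.61 (adjusted p = 0.000954). Col18a1, a basement membrane collagen, was the gene that rose, by 0.56 (adjusted p = 0.0137). Of the fibrillar collagens listed, Col1a1 (-0.16, adjusted p = 0.589), Col1a2 (-0.03, adjusted p = 0.892) and Col3a1 (-0.34, adjusted p = 0.162) were not called. Col5a1 was called lower (-0.40, adjusted p = 0.04). In transferred against non-transferred colon 11 of the 25 genes were higher and Col18a1 was lower.

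Of 24 inducers of metalloproteinase transcription and AP-1 factors, 13 rose and 2 fell in non-transferred against control colon. None of the Fos and Jun genes in this list was called higher. Fos, Fosl1, Fosl2, Jun, Junb and Jund were not called, with log2 differences of -0.46 (Fosl2) to 0.40 (Junb). Il1a, Il6, Il11, Il17a, Il22 and Osm passed the filter only through the non-transferred libraries, so nothing is read from the counts of this list. Il1b had 115 ± 65.3 normalized counts in transferred, 1283 ± 786 in non-transferred and 40.1 ± 15.9 in control colon, a log2 difference of 4.87 between non-transferred and control colon (adjusted p = 3.18e-05) and of -3.46 between transferred and non-transferred colon (adjusted p = 0.000331). Il1a rose by 5.78 (adjusted p = 2.79e-05), Tnf by 4.08 (adjusted p = 4.75e-05) and Osmr, the receptor of oncostatin M, by 2.58 (adjusted p = 4.64e-05). The 2 that fell were Fosb, an AP-1 subunit (-3.29, adjusted p = 0.000189), and Bsg, a surface inducer of metalloproteinases (-0.65, adjusted p = 0.00674). In transferred against non-transferred colon 13 were lower and Fosb was higher. Over the 94 tested genes of these 6 lists, 1 was called between transferred and control colon, Tnf, with 193 ± 47.5 normalized counts in transferred and 46.6 ± 28.6 in control colon (log2 difference 2.22, adjusted p = 0.0296; SD, n = 5 and 3). This call was lost without control replicate 1 or 2 or transferred replicate 1, 3 or 4, with differences of 1.62 to 2.36. At an unadjusted p under 0.05 limma gave 12 higher and 14 lower, edgeR called 1 higher and 0 lower, and DESeq2 6 higher and 4 lower.

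**Figure D4:**
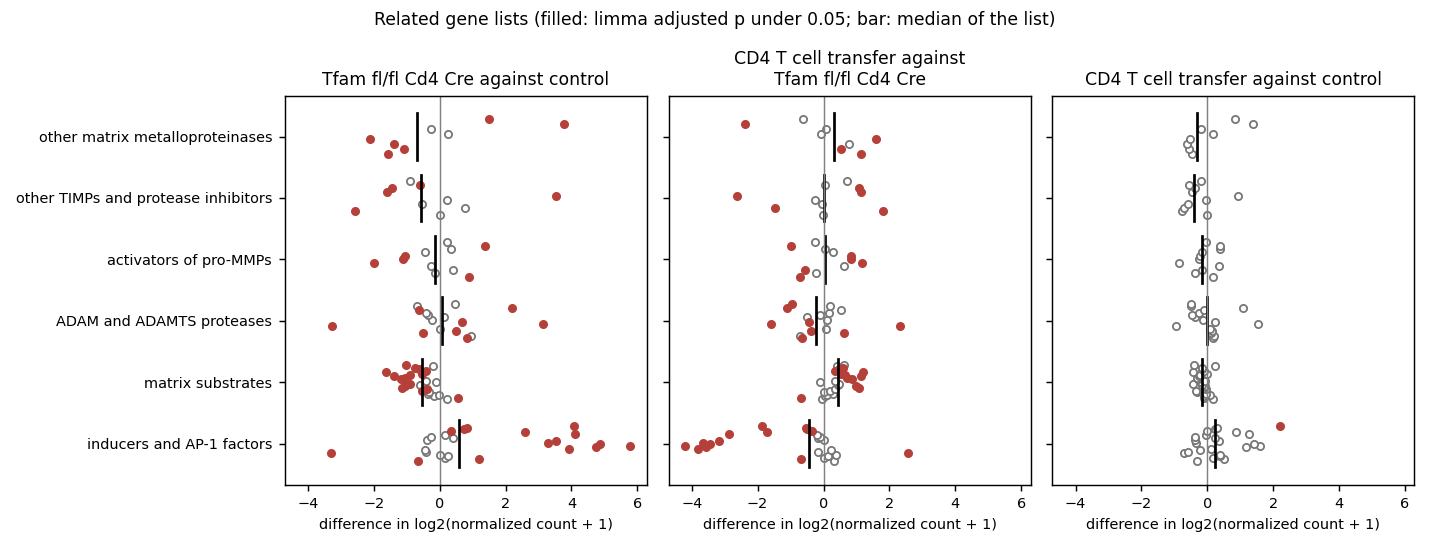
Fitted differences in log2(normalized count + 1) of the tested genes of 6 related lists, with called genes filled and a bar at each list's median, in the same 3 comparisons. The inducers reach 5.78 and the matrix substrates have a median of -0.55 in non-transferred against control colon, and 1 filled point remains in transferred against control colon. Il1a, the gene at 5.78, passed the filter only through the non-transferred libraries.

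Marker genes of several cell types differed between the groups, among them cell types not named above as sources of these enzymes. All 9 tested neutrophil markers of 13 listed rose in non-transferred against control colon and fell in transferred against non-transferred colon. Markers such as Cxcr2 and Retnlg passed the filter only through the non-transferred libraries, so nothing is read from this count. The 13 listed neutrophil markers summed to 79.9 to 430 normalized counts in transferred, 1954 to 5545 in non-transferred and 35.8 to 44.1 in control libraries. Cxcr2 was at 0 in all 3 control libraries and in 2 transferred libraries, and had 31.8 to 86.2 in non-transferred libraries. Of 12 macrophage and monocyte markers 9 rose and 1 fell in non-transferred against control colon, with sums of 5478 to 13419 in transferred, 14847 to 18717 in non-transferred and 3620 to 5212 in control libraries. Of 11 fibroblast markers 1 rose and 4 fell, with sums of 7134 to 9557 in transferred, 4547 to 6771 in non-transferred and 7554 to 12019 in control libraries. Smooth muscle markers fell in 8 of 8, with sums of 87577 to 142795 in transferred, 29169 to 42842 in non-transferred and 206719 to 255482 in control libraries. Fat cell markers fell in 5 of 5, with sums of 2738 to 7535 in transferred, 355 to 1372 in non-transferred and 2535 to 10754 in control libraries. All 7 T cell markers rose, with sums of 475 to 1394 in transferred, 1289 to 1383 in non-transferred and 230 to 292 in control libraries. Colon epithelium markers summed to 710352 to 895841 in transferred, 590958 to 657900 in non-transferred and 748097 to 808683 in control libraries, and 1 of 10 rose and 2 fell. Endothelial markers fell in 4 of 8. Of 3 Paneth cell markers tested, Pla2g2a and Lyz1 rose by 6.47 (adjusted p = 0.00016) and 1.72 (adjusted p = 0.017), and Pla2g2a was also higher in transferred than in control colon, by 4.28 (adjusted p = 0.0296). The call of Lyz1 was lost without non-transferred replicate 4 or control replicate 1, and that of Pla2g2a against control was lost without any 1 of 6 libraries, with differences of 3.59 to 4.66. Between transferred and control colon 1 neutrophil marker (Ly6g, 3.18, adjusted p = 0.0307) and 4 of 7 T cell markers were higher and 4 of 8 smooth muscle markers lower, and each of these counts was 0 without control replicate 2. The call of Ly6g was also lost without control replicate 1 or 3 or transferred replicate 1 or 3, with edgeR, with only the 2 groups, with quantile normalization and at a pseudocount of 10, where its difference was 1.08. In the same comparison edgeR called 0 neutrophil and 0 macrophage markers, and DESeq2 called 4 and 6 of them higher. The part of these cell types in the levels of the metalloproteinases and of Timp1 was not tested.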

How the data were processed

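RNA of whole colon was sequenced in 11 libraries. The authors aligned the reads to GRCm39 and counted them for each gene with HTSeq (1.99.2), and the deposited signal values are these counts after 1 scaling factor per library. HISAT2 (2.2.1), SAMtools (1.13) and DESeq2 (1.40.2) are the other tools in the submitters' processing notes. The annotation release and strand setting were not given in the sources used here. Every value was a whole multiple of its library's step to within 0.05 (100% of values), and 1 read was worth 0.913 to 1.10 normalized counts, so the reads could be recovered.

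Differences were fitted with limma (3.58.1, under R 4.3.3) to log2 values after adding 1, with 1 model for the 3 groups, a trended variance and genes averaging 10 or more normalized counts. Genes with a Benjamini-Hochberg adjusted p under 0.05 were called. The alternatives covered the pseudocount, the filter, quantile and TMM normalization, count models on recovered reads (DESeq2 1.42.0, edgeR 4.0.16), fits of 2 groups alone or without the trend, a block for the replicate number, the significance threshold of the paper, and omission of each library. The procedure was tested on simulated data. The members and all lists were chosen with earlier results of these data known. Named were all members, up to 4 genes of each related list with the smallest adjusted p in non-transferred against control colon, and for each member the 3 genes most like it. Mmp16, Mmp28, Timp3, Ctsk, Furin, Col18a1, Fosb, Bsg and the named cell type markers were chosen after their values were seen. Col1a1, Col1a2, Col3a1, Col5a1, Il6, Il11, Il17a, Il22 and Osm were also named after their values were seen. GENCODE vM39 gave coordinates, exon lengths and the names of 99.2% of the gene identifiers.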

Additional observations from a re-analysis of the deposited data

Results flagged for a closer look

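Among 48 sets of transferred libraries examined, 10 of members and 38 of other named genes, 5 held a library far from the other 4. About 1 in 20 such sets would be flagged by chance if values were normally distributed. The rate for skewed counts such as these was not tested. None was a set of a member. S100a8, a neutrophil marker, had 52.4 normalized counts in transferred replicate 4, against 1.01 to 7.86 in the others, and Ly6g, another, had 38.1 there, against 3.02 to 12.8. Il1a had 14.2 in transferred replicate 5, against 3.93 to 6.39. Tfpi2 had 182 in the same library, against 105 to 118. Pcsk6 had 399 in transferred replicate 1, against 184 to 211.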

How the results depend on the processing

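With 5, 3 and 3 libraries, and control levels of a few reads for Mmp7, Mmp8 and Mmp10, the size of the members' differences is imprecise. The called members kept direction and call in non-transferred against control colon under all alternatives in which they were tested. Timp1 was not tested with the filter at a mean of 50 normalized counts. Keeping a call is no sign of stability, since the members were chosen on these values. In transferred against non-transferred colon the exception was Timp1 without non-transferred replicate 3. The number of members called between transferred and control colon was 0 as reported and 1 (Mmp7) with a replicate block and with the threshold of the paper, and 0 to 1 when a library was left out. The number of genes called there was 268, and 1236 with DESeq2, 177 with edgeR, 145 without a variance trend, 23 with only the 2 groups, 930 with the replicate block, 1663 with the threshold of the paper and 11 (without control replicate 2) to 831 (without transferred replicate 5) when a library was left out. Of the genes of the related lists, 1 was called, and 10 with DESeq2, 0 with only the 2 groups, 6 with the replicate block, 12 with the threshold of the paper and 0 to 5 when a library was left out. Between transferred and non-transferred colon 5240 genes were called, 3078 to 5267 when a library was left out, and 49 related genes, 31 to 52 when a library was left out, with the fewest without non-transferred replicate 3 in both counts. Differences of opposite sign were seen between transferred and non-transferred colon for Timp3, with -0.0114 under the replicate block and -0.2331 to 0.2115 when a library was left out, and for Lyz1, with 0.0585 under the block. The cause was not tested. The labels do not pair libraries by number. Deviations of libraries with the same number correlated at -0.10 to 0.39, a library was closest to its own number in 7 of 12 checks between groups that share 3 numbers (5 of 6 between transferred and control colon), and a replicate block gave 6875 called genes in non-transferred against control, 5039 in transferred against non-transferred and 930 in transferred against control colon. In that fit the difference of Mmp7 between non-transferred and control colon was 6.75, and among named genes calls of Timp3, Mmp16 and Lyz1 in that comparison and of Mmp15, Mmp25, Adam8, Adamts4 and Ctsk between transferred and non-transferred colon were lost.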
